A study of Homo sapiens with 28 samples.

Results

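The comparison described here is the depletion of p300 in prostate cancer cells that were already depleted of HOXB13. It sets the 2 libraries labelled shHOXB13+shp300 against the 2 labelled shHOXB13, which is 4 of the 16 knockdown libraries and 4 of the 28 RNA-seq libraries in the series, and it takes in every gene in the deposited expression tables. All cells were LNCaP, an androgen-responsive human prostate cancer line that was derived from a lymph node metastasis. shHOXB13+shp300 cells carried a pGIPZ lentiviral hairpin against *HOXB13* together with a pLKO.1 lentiviral hairpin against *EP300*, the gene for p300. shHOXB13 cells carried the *HOXB13* hairpin. The 4 further groups of 2 libraries used for comparison were shHOXB13+shp300/CBP (both acetyltransferase hairpins), shHOXB13+shCBP (a pLKO.1 hairpin against *CREBBP*, the gene for CBP), shCtrl+shp300 and shCtrl, the last being cells with the pGIPZ control vector. Each target was lowered with 1 hairpin sequence, so an effect of that sequence on other transcripts and an effect of its target cannot be told apart in these libraries. Whether cells with shHOXB13 or shCtrl alone also received an empty or non-targeting pLKO.1 virus is not given in the sources used here, so an effect of a further virus and an effect of p300 depletion cannot be told apart from this comparison alone. The methods call the replicates biological duplicates.

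HOXB13 is a homeobox transcription factor of the prostate epithelium that works with the androgen receptor and can also recruit a histone deacetylase complex. p300 and CBP are closely related acetyltransferases that acetylate histone H3 at lysine 27 at enhancers and promoters and act as coactivators for many transcription factors, the androgen receptor and interferon regulatory factors among them. Interferon-stimulated genes form an antiviral program that epithelial cells switch on after their RNA sensors or interferon receptors are engaged. The study asked whether the genes released by HOXB13 loss need p300 or CBP.

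Expression is given as FPKM, fragments per kilobase of gene length, scaled to the mapped reads of the library. Fold changes and their standard errors (SE) are on the scale of log2(FPKM + 0.1), which understates the change of genes near 0, and adjusted p-values are from limma with Benjamini-Hochberg adjustment over the 17678 genes tested. A gene was called higher or lower where it changed by 1.5-fold or more with an adjusted p under 0.05. Members of gene lists were counted at an adjusted p under 0.05 with no fold threshold. The 2 shHOXB13+shp300 libraries held 8165560 and 9046906 mapped reads and the 2 shHOXB13 libraries 12515059 and 9518444, within a range of 7458934 to 16338528 over the knockdown libraries. The share of mapped reads in genes was 65.5% and 58.7% in shHOXB13+shp300 and 68.8% and 66.3% in shHOXB13. Replicates correlated at 0.969 in shHOXB13+shp300 and 0.976 in shHOXB13 (Pearson's r across genes on the log2 scale, where genes are not independent replicates). The lowest value among the knockdown groups was 0.951, in shHOXB13+shp300/CBP, which enters the shared estimate of the spread.

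*EP300* RNA was lower in every library with shp300. *EP300* measured 3.16 and 3.39 FPKM in shHOXB13+shp300 cells, against 5.62 and 5.88 FPKM in shHOXB13 cells, with no overlap (log2 −0.79 with SE 0.15, adjusted p = 0.0112 in limma). It passed in the fit of all libraries but in none of the 4 fits that left out 1 library, where its adjusted p was 0.0520 to 0.0867. In cells with HOXB13, *EP300* measured 4.34 and 4.87 FPKM with shCtrl+shp300 and 11.5 and 10.5 FPKM with shCtrl (log2 −1.24 with SE 0.15, adjusted p = 0.00175 in limma), and the effect of the hairpin was not shown to differ between the backgrounds (difference log2 0.44 with SE 0.22, adjusted p = 0.403 in limma). *CREBBP* measured 5.69 and 6.66 FPKM in shHOXB13+shp300 cells and 5.15 and 4.72 FPKM in shHOXB13 cells, a difference that did not pass (log2 0.31 with SE 0.16, adjusted p = 0.263 in limma). *HOXB13* measured 12.06 and 11.396 FPKM in shHOXB13+shp300 cells and 11.21 and 11.350 FPKM in shHOXB13 cells, without overlap but close together, and did not pass (log2 0.06 with SE 0.17, adjusted p = 0.907 in limma). Of 12 lysine acetyltransferase genes 1 passed as higher and 2 as lower, beside 3.5% higher and 3.44% lower over all genes at the same threshold. The gene higher was *KAT2A* (GCN5) (log2 0.62 with SE 0.14, adjusted p = 0.0217 in limma). *KAT2B* (PCAF) was lower along with *EP300* (log2 −0.97 with SE 0.20, adjusted p = 0.0144 in limma). Without 1 library, *KAT2A* passed in 1 of 4 fits (highest adjusted p = 0.157) and *KAT2B* in 1 of 4 (highest 0.111). *EP300* lies at chr22:41092592-41180077 on the plus strand and *CREBBP* at chr16:3725054-3880713 on the minus strand (GRCh38, GENCODE 44). RNA values do not give protein levels.

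**Figure D1:**
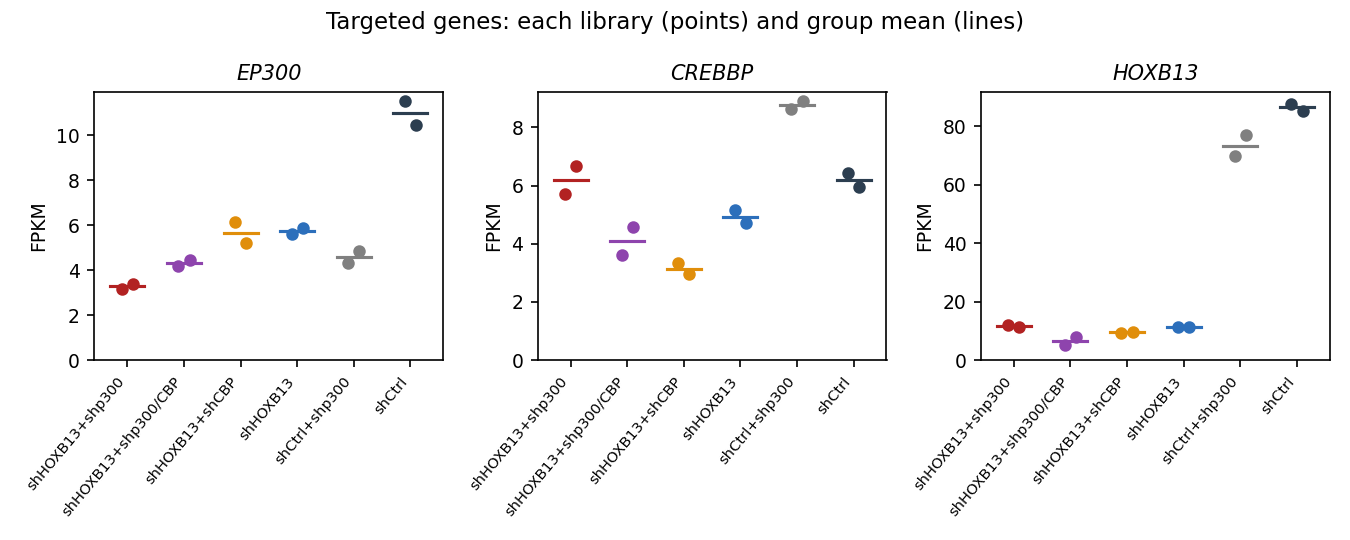
FPKM of *EP300*, *CREBBP* and *HOXB13* in each library (points) with the group mean (line), for 6 groups of 2 libraries. *EP300* was 3.16 and 3.39 FPKM with shHOXB13+shp300, below the 5.62 and 5.88 FPKM of shHOXB13, and *HOXB13* was between 11.2 and 12.1 FPKM in all 4 of these libraries.

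Depletion of p300 in HOXB13-depleted cells moved about as many genes up as down. In all, 556 genes were higher (3.15% of those tested) and 546 were lower (3.09%), and the median log2 change over all tested genes was 0 (quartiles −0.28 and 0.32). The median log2 change was 1.12 over the genes that were higher and −0.91 over those that were lower. The call counts depended on pooling the spread over the 16 knockdown libraries. A fit of the 4 libraries alone called 0 genes at adjusted p under 0.05 (smallest 0.0602), with 1336 higher and 972 lower by at least 1.5-fold at an unadjusted p under 0.05. voom on read counts recovered from the FPKM values called 635 higher and 633 lower. Leaving out shHOXB13 replicate 1 gave 181 higher and 142 lower, leaving out shHOXB13 replicate 2 gave 154 and 192, leaving out shHOXB13+shp300 replicate 1 gave 218 and 490, and leaving out shHOXB13+shp300 replicate 2 gave 226 and 174. In these fits the lone library is assumed to vary like the other groups. The fits without 1 library reuse the remaining libraries of the main fit, so shared calls are not separate support. As these are bulk libraries, fewer cells of a kind and less RNA per cell cannot be told apart.

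**Figure D2:**
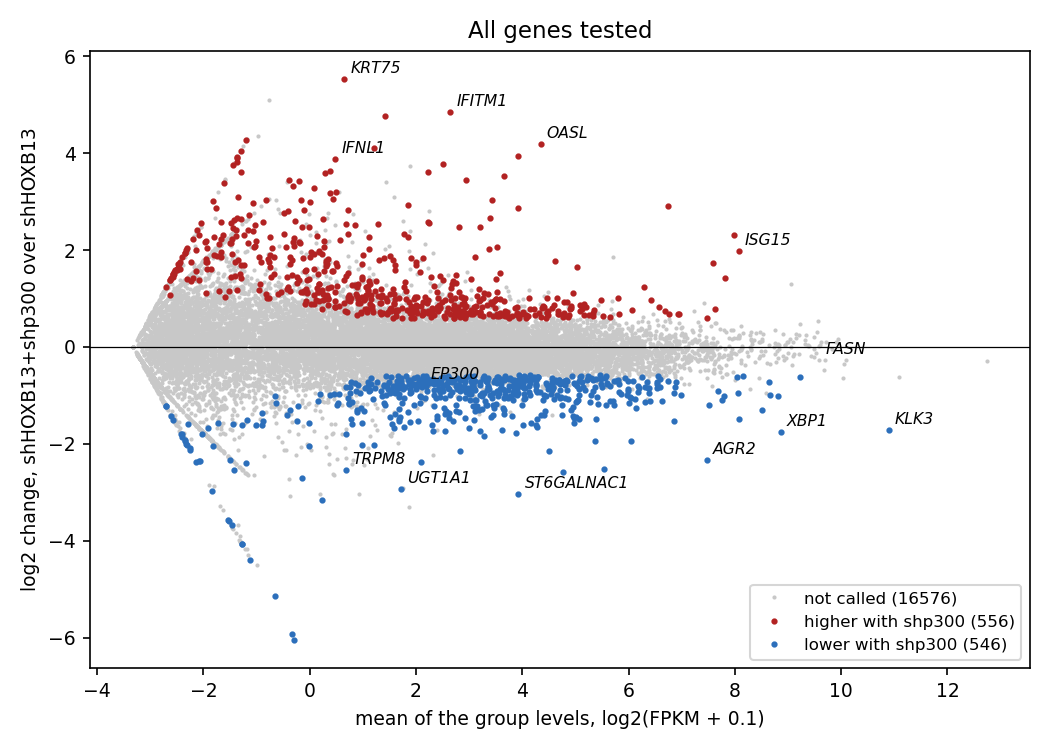
Log2 change (shHOXB13+shp300 minus shHOXB13) of each of the 17678 tested genes against its mean log2(FPKM + 0.1). The 556 genes called higher are red, the 546 called lower are blue, and the remaining genes are grey.

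Interferon-stimulated genes rose together and held several of the largest rises. Of 28 such genes on the list, 24 were higher, 0 were lower and 4 did not pass, against 3.5% higher and 3.44% lower over all genes at the same threshold. The median log2 change of the list was 2.39 (range 0.13 to 4.85), beside 0 over all genes. Their summed level was 2042 and 1869.9 FPKM in shHOXB13+shp300 cells, against 505 and 404 FPKM in shHOXB13 cells. The count of members higher was 19 to 23 in the fits that left out 1 library, 24 with voom and 0 in the fit of the 4 libraries alone.

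*OASL*, an oligoadenylate synthetase-like protein that enhances RIG-I signalling, measured 93.2 and 79.4 FPKM in shHOXB13+shp300 cells, against 5.37 and 3.98 FPKM in shHOXB13 cells (log2 4.19 with SE 0.37, adjusted p = 0.000153 in limma). *IFITM1*, a membrane protein that blocks virus entry, measured 30.6 and 34.7 FPKM with shHOXB13+shp300 and 1.45 and 0.733 FPKM with shHOXB13 (log2 4.85 with SE 0.63, adjusted p = 0.00111 in limma). In both genes the libraries of the 2 groups lay far apart. *RSAD2*, the gene for the antiviral enzyme viperin, measured 60.7 and 57.03 FPKM with shHOXB13+shp300 and 3.85 and 3.65 FPKM with shHOXB13 (log2 3.94 with SE 0.44, adjusted p = 0.000485 in limma). *BST2*, the gene for tetherin, which holds budding virus at the cell surface, measured 21.6 and 18.1 FPKM with shHOXB13+shp300 and 2.20 and 0.825 FPKM with shHOXB13 (log2 3.77 with SE 0.41, adjusted p = 0.000471 in limma). *IFIT1*, which binds viral RNA lacking the host cap, measured 45.7 and 39.6 FPKM with shHOXB13+shp300 and 4.31 and 3.02 FPKM with shHOXB13 (log2 3.52 with SE 0.35, adjusted p = 0.00028 in limma). In each of these genes the lowest shHOXB13+shp300 library lay above the highest shHOXB13 library. The more abundant members moved less in log2 terms but by more FPKM. *ISG15*, a ubiquitin-like modifier, measured 547 and 513 FPKM in shHOXB13+shp300 cells and 151 and 121 FPKM in shHOXB13 cells (log2 1.97 with SE 0.21, adjusted p = 0.000398 in limma), and *IFITM3* measured 392 and 317 FPKM with shHOXB13+shp300 and 111 and 100.3 FPKM with shHOXB13 (log2 1.74 with SE 0.17, adjusted p = 0.000236 in limma). These 7 genes passed in all 4 fits that left out 1 library. *IFITM1* and *IFITM3* are close paralogs and neighbours, and reads could be split between them.

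The cytosolic RNA sensors rose as well. *DDX58*, which encodes RIG-I, measured 12.7 and 10.2 FPKM in shHOXB13+shp300 cells, against 1.85 and 1.83 FPKM in shHOXB13 cells (log2 2.57 with SE 0.20, adjusted p = 5.57e-05 in limma). *IFIH1*, which encodes MDA5, measured 9.53 and 7.98 FPKM with shHOXB13+shp300 and 4.26 and 4.49 FPKM with shHOXB13 (log2 0.98 with SE 0.16, adjusted p = 0.00466 in limma), and *DHX58*, which encodes LGP2, measured 2.20 and 2.28 FPKM with shHOXB13+shp300 and 0.367 and 0.281 FPKM with shHOXB13 (log2 2.47 with SE 0.30, adjusted p = 0.000763 in limma). All 3 were separate between the groups and passed whichever library was left out, *IFIH1* narrowly (highest adjusted p = 0.050). The sensor adaptor *MAVS* (log2 −0.15, adjusted p = 0.638, limma) and the kinase *TBK1* (log2 −0.07, adjusted p = 0.894, limma) did not pass. The interferon regulatory factor *IRF3* did not pass either (log2 0.54, adjusted p = 0.0675, limma), although it passed under median-of-ratios scaling (adjusted p = 0.033).

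Parts of the interferon-stimulated transcription factor ISGF3 rose by unequal amounts. *IRF9* measured 22.9 and 23.6 FPKM in shHOXB13+shp300 cells, against 6.81 and 4.38 FPKM in shHOXB13 cells (log2 2.07 with SE 0.24, adjusted p = 0.000663 in limma). *STAT2* measured 15.1 and 14.2 FPKM with shHOXB13+shp300 and 9.96 and 10.3 FPKM with shHOXB13 (log2 0.53 with SE 0.13, adjusted p = 0.0354 in limma). *IRF7*, the regulatory factor that amplifies interferon production, measured 17.9 and 16.2 FPKM with shHOXB13+shp300 and 7.94 and 7.52 FPKM with shHOXB13 (log2 1.13 with SE 0.21, adjusted p = 0.00876 in limma). *IRF9* kept its call in all 4 fits that left out 1 library, while *IRF7* passed in 1 (highest adjusted p = 0.0713) and *STAT2* in none (highest 0.186). The 4 members that did not pass were *MX1*, *MX2*, *IRF1* and *USP18*. *MX1* measured 0.435 and 0.272 FPKM in shHOXB13+shp300 cells and 0.327 and 0.287 FPKM in shHOXB13 cells, overlapping (log2 0.13 with SE 0.27, adjusted p = 0.836 in limma). *MX2* (log2 1.46, adjusted p = 0.0594, limma), *IRF1* (log2 0.45, adjusted p = 0.437) and *USP18* (log2 0.52, adjusted p = 0.149) were separate between the groups without passing, and *MX2* passed with a pseudocount of 1 FPKM (adjusted p = 0.019).

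Among interferon genes themselves, RNA of the lambda class was detected. *IFNL1*, *IFNL2* and *IFNL3* had 0 reads in the shCtrl+shp300 and shCtrl libraries. Groups at 0 add no spread to the pooled fit, so the p-values of these genes can come out too small. *IFNL1* (interferon lambda 1) measured 5.01 and 5.42 FPKM in shHOXB13+shp300 cells, or 35 and 42 reads, against 0.280 and 0.245 FPKM in shHOXB13 cells, or 3 and 2 reads (log2 3.87 with SE 0.29, adjusted p = 5.57e-05 in limma). *IFNL3* had 7 and 9 reads with shHOXB13+shp300 and 0 in both shHOXB13 libraries, at least 6.80-fold higher when the shHOXB13 group is set to a floor of 3 reads over the group (limma adjusted p = 0.014). That call passed in none of the 4 fits that left out 1 library (highest adjusted p = 0.0898). *IFNL2* had 5 reads in each shHOXB13+shp300 library and 1 and 0 in the shHOXB13 libraries (log2 2.63 with SE 0.51, adjusted p = 0.0112 in limma), and it passed in 1 of those 4 fits (highest adjusted p = 0.106). *IFNL2* and *IFNL3* are nearly identical in sequence, so reads may have been split between them. *IFNB1* (interferon beta) had 2 and 7 reads with shHOXB13+shp300 and 2 and 0 reads with shHOXB13 and did not pass (log2 1.89 with SE 0.97, adjusted p = 0.281 in limma). *IFNLR1*, a subunit of the lambda receptor, was at or below 0.0268 FPKM in all 4 libraries and was not tested.

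Chemokines that interferon induces rose with the same libraries. *CCL5* measured 8.92 and 10.1 FPKM in shHOXB13+shp300 cells, against 0.396 and 0.521 FPKM in shHOXB13 cells (log2 4.11 with SE 0.49, adjusted p = 0.000707 in limma). *CXCL10* measured 4.03 and 4.18 FPKM with shHOXB13+shp300 and 0.920 and 0.432 FPKM with shHOXB13 (log2 2.51 with SE 0.46, adjusted p = 0.0077 in limma), and *CXCL11* measured 4.51 and 4.35 FPKM with shHOXB13+shp300 and 0.349 and 0.197 FPKM with shHOXB13 (log2 3.63 with SE 0.67, adjusted p = 0.00835 in limma). *CCL5* passed in every fit that left out 1 library, whereas *CXCL10* and *CXCL11* lost their calls without shHOXB13 replicate 2 or without shHOXB13+shp300 replicate 2 (highest adjusted p = 0.0832 and 0.0772). Of 12 genes of MHC class I antigen presentation, 3 were higher and 0 lower, against 3.5% higher over all genes (median log2 0.89). The count of members higher was 9 with voom, 5 with a pseudocount of 1 FPKM, 1 without shHOXB13 replicate 2 and 0 in the fit of the 4 libraries alone. *HLA-E*, a ligand of natural killer cell receptors, measured 10.6 and 10.1 FPKM in shHOXB13+shp300 cells and 4.73 and 4.58 FPKM in shHOXB13 cells (log2 1.13 with SE 0.17, adjusted p = 0.00257 in limma) and passed in all 4 of those fits. *HLA-B* passed in none of them (log2 0.97, adjusted p = 0.0435, highest 0.181), and *PSMB9*, an immunoproteasome subunit, failed without shHOXB13 replicate 2 (log2 1.79, adjusted p = 0.00691, highest 0.0577). *B2M* (log2 0.35, adjusted p = 0.442, limma) did not pass. *HLA* genes are close paralogs, so their separate values are uncertain. Of 13 NF-kB target genes, 0 passed in either direction (median log2 0.01).

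*PTPRC* and *CD3E*, which define leukocytes and T cells, were at 0 in all 4 libraries, and 4 of 7 immune markers were tested, of which 0 passed. The summed immune markers measured 21.01 and 21.1 FPKM in shHOXB13+shp300 cells and 9.64 and 13.2 FPKM in shHOXB13 cells. *CD68*, a lysosomal protein of macrophages that other cells also express, made up most of it, with 20.9 and 20.8 FPKM with shHOXB13+shp300 and 9.30 and 12.3 FPKM with shHOXB13 (log2 0.96 with SE 0.38, adjusted p = 0.155 in limma).

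**Figure D3:**
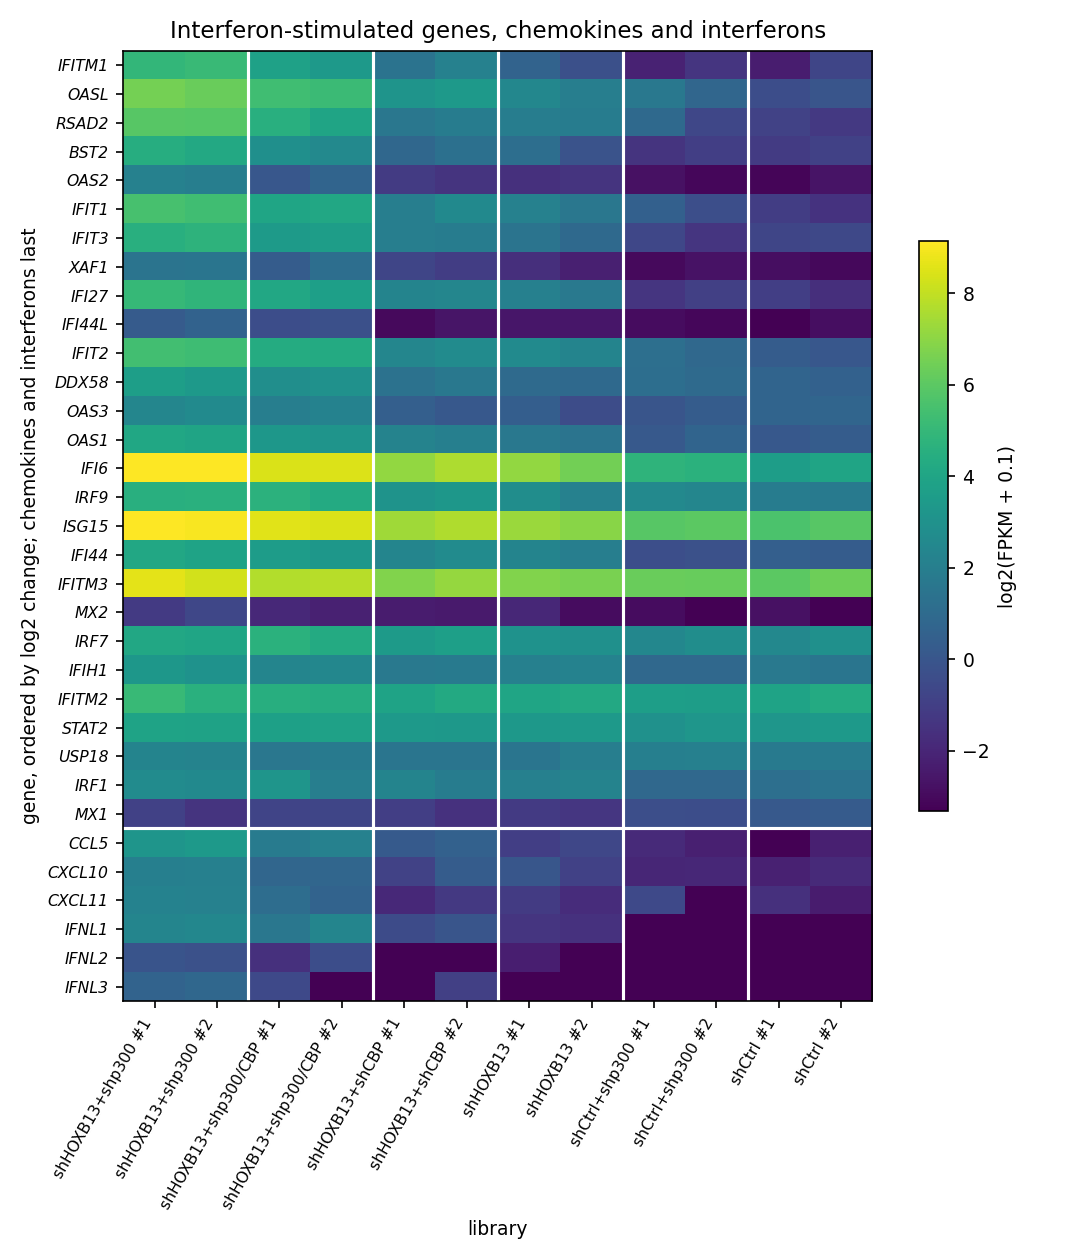
Heat map of log2(FPKM + 0.1) for 27 of the interferon-stimulated genes, ordered by their change, followed by 3 chemokine and 3 interferon lambda genes, in the 12 libraries of 6 groups. The shHOXB13+shp300 group has the highest mean of the 6 groups for all genes shown except *MX1*, *IRF1* and *IRF7*, and the shHOXB13+shp300/CBP libraries come between it and the shHOXB13 libraries for most genes.

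The interferon-stimulated genes were at lower summed levels in the other groups. Their sum was 1224 and 1189 FPKM in shHOXB13+shp300/CBP cells and 529 and 670.3 FPKM in shHOXB13+shCBP cells, which also carried a pLKO.1 hairpin. It was 231 and 228 FPKM in shCtrl+shp300 cells, which carried the same *EP300* hairpin, and 191 and 232 FPKM in shCtrl cells. Set directly against shCBP, which shares the shHOXB13+shp300 libraries with the main comparison, 21 of the 28 genes were higher with shp300 and 0 lower (median log2 1.82), beside 1.86% higher and 0.718% lower over all genes. In shCtrl cells 0 of the 28 rose with shp300 and 1 fell (median log2 0.00), beside 1.05% higher and 2.19% lower over all genes. That gene was *IFIH1* (log2 −0.73 with SE 0.16, adjusted p = 0.0315 in limma), which passed in none of the 4 fits that left out a shCtrl or shCtrl+shp300 library (highest adjusted p = 0.196). The difference of the shp300 effect between the backgrounds passed for 15 of the 28 genes, each more positive in shHOXB13 cells, beside 0.498% of all genes. These included *BST2* (difference log2 3.98 with SE 0.59, adjusted p = 0.0106 in limma), *DDX58* (log2 2.11 with SE 0.28, adjusted p = 0.00758 in limma) and *ISG15* (log2 1.79 with SE 0.29, adjusted p = 0.016 in limma). Of the 8 fits without 1 library, the difference passed in 8 for *DDX58*, in 6 for *BST2* (not without shCtrl+shp300 replicate 1 or shCtrl replicate 2, highest 0.0577) and in 2 for *ISG15* (highest 0.0920). *IFIT1* (log2 2.17 with SE 0.49, adjusted p = 0.0716 in limma) and *RSAD2* (log2 2.72 with SE 0.62, adjusted p = 0.0712 in limma) missed it, with shCtrl+shp300 libraries that lay above the shCtrl libraries (1.85 and 0.536 FPKM against 0.454 and 0.314 FPKM for *RSAD2*).

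The promoters of these genes are shown because many hold the core of the interferon-stimulated response element (ISRE), the sequence that ISGF3 and interferon regulatory factors bind. The core is the letters GAAA, any 2 bases and GAAA again. It was searched on both strands in the 250 bases before the gene start in RefSeq promoters (GRCh38.p14), and overlapping matches were allowed. Of the 28 interferon-stimulated genes, 20 had a promoter in the table, and 12 of these (60%) held the core. It was held by 39 of the 385 promoters matched among the genes that were higher (10.1%), 1 of 415 among the genes that were lower (0.241%), 295 of 11971 among all tested genes (2.46%) and 839 of the 27305 promoters in the table (3.07%). The 39 include members of the interferon-stimulated list, *IFIT1*, *ISG15* and *BST2* among them, so that share is not separate from the list's. A match is a run of letters and does not show that a factor was bound. In the promoters of *IFIT1*, *ISG15*, *BST2* and *IFNL1*, capitals mark the matched letters, which can be those of the opposite strand. The matches start 116 and 103 bases before the gene start in *IFIT1* (chr10:89392373-89392622, plus strand), 113 and 107 bases before it in *ISG15* (chr1:1013247-1013496, plus strand), 130 and 124 bases in *BST2* (chr19:17405631-17405880, minus strand) and 214 and 208 bases in *IFNL1* (chr19:39296157-39296406, plus strand), and the paired matches of the last 3 overlap.
IFIT1: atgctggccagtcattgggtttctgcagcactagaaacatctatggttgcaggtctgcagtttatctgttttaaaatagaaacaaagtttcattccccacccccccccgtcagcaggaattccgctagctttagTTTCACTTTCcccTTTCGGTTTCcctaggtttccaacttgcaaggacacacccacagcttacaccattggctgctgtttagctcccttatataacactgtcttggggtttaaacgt
ISG15: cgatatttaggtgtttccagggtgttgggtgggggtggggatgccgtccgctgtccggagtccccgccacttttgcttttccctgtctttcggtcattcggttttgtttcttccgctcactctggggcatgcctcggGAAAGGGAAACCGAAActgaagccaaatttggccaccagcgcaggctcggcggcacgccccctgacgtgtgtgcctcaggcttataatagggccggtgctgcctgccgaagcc
BST2: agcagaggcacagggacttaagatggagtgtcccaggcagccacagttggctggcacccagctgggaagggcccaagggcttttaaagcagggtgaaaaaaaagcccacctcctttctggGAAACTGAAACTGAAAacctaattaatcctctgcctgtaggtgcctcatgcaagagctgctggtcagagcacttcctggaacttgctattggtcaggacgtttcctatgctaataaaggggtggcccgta
IFNL1: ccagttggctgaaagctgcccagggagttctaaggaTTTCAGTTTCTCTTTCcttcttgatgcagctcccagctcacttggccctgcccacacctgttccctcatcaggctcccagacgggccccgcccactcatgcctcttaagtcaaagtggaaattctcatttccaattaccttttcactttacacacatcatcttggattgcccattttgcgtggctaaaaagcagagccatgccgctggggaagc

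Androgen response genes moved the opposite way, with 16 of 30 lower, against 3.44% lower and 3.5% higher over all genes at the same threshold. *ETV1*, an ETS factor that is rearranged in LNCaP cells, measured 2.42 and 2.05 FPKM in shHOXB13+shp300 cells, against 3.996 and 3.91 FPKM in shHOXB13 cells (log2 −0.80 with SE 0.14, adjusted p = 0.00716 in limma). Of 9 genes of androgen receptor signalling 3 were lower, *ETV1* among them, and 0 higher. *ETV1* passed in 1 of the 4 fits that left out 1 library (highest adjusted p = 0.0628). Of the 30 androgen response genes outside the kallikreins, 16 were lower and 1 was higher (median log2 −0.94, beside 0 over all genes). In shCtrl cells 6 of the 30 were lower with shp300 and 1 higher (median log2 −0.32), beside 2.19% lower and 1.05% higher over all genes. The difference between backgrounds passed for 3, each more negative in shHOXB13 cells, beside 0.356% of all genes. The gene higher in shHOXB13 cells was *ADAM7*, at 0.108 and 0.163 FPKM with shHOXB13+shp300 and 0.0235 and 0 FPKM with shHOXB13. That call was lost in all 4 fits that left out 1 library, with a pseudocount of 1 FPKM, with no filter, with a filter of 1 FPKM, with voom, with the replicate block and in the fit of the 4 libraries alone. The count of members lower fell to 10 without shHOXB13 replicate 1, 10 without shHOXB13 replicate 2 and 10 without shHOXB13+shp300 replicate 2, was 14 without shHOXB13+shp300 replicate 1, and was 0 in the fit of the 4 libraries alone.

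*TRPM8*, an androgen-regulated cation channel, measured 0.545 and 0.590 FPKM in shHOXB13+shp300 cells and 4.19 and 3.38 FPKM in shHOXB13 cells (log2 −2.54 with SE 0.19, adjusted p = 5.57e-05 in limma). *FKBP5*, a co-chaperone of steroid receptors, measured 3.73 and 2.53 FPKM with shHOXB13+shp300 and 10.3 and 10.5 FPKM with shHOXB13 (log2 −1.73 with SE 0.21, adjusted p = 0.000707 in limma). *ELL2*, an RNA polymerase II elongation factor, was lower by a similar amount (log2 −1.50 with SE 0.17, adjusted p = 0.000485 in limma), as were *ALDH1A3*, which makes retinoic acid (log2 −1.31 with SE 0.12, adjusted p = 0.000236 in limma), and *SORD*, sorbitol dehydrogenase (log2 −1.48 with SE 0.18, adjusted p = 0.000745 in limma). All 5 were separate between the groups and passed whichever library was left out. *HPGD*, which degrades prostaglandins, was lower (log2 −1.62 with SE 0.33, adjusted p = 0.0131 in limma) but passed in none of those fits (highest adjusted p = 0.0910). *TMPRSS2*, an androgen-regulated protease, measured 192 and 159.5 FPKM with shHOXB13+shp300 and 255 and 245 FPKM with shHOXB13 and did not pass (log2 −0.51 with SE 0.17, adjusted p = 0.0924 in limma). Of 4 STEAP metalloreductase genes 3 fell, against 3.44% lower over all genes. *STEAP4* measured 3.67 and 2.95 FPKM in shHOXB13+shp300 cells, against 14.8 and 14.98 FPKM in shHOXB13 cells (log2 −2.14 with SE 0.27, adjusted p = 0.000877 in limma), and *STEAP1* (log2 −1.15, adjusted p = 0.00241) and *STEAP2* (log2 −0.96, adjusted p = 0.00217) were lower as well, each in all 4 fits that left out 1 library.

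The prostate kallikreins, secreted serine proteases, held 3 genes that fell. *KLK3*, the gene for prostate-specific antigen, measured 1234 and 882 FPKM in shHOXB13+shp300 cells, against 3480.4 and 3363 FPKM in shHOXB13 cells (log2 −1.71 with SE 0.21, adjusted p = 0.000877 in limma). *KLK2* measured 24.4 and 18.01 FPKM with shHOXB13+shp300 and 81.7 and 78.9 FPKM with shHOXB13 (log2 −1.93 with SE 0.19, adjusted p = 0.000274 in limma). *KLK4* measured 81.6 and 64.9 FPKM with shHOXB13+shp300 and 130.0 and 127 FPKM with shHOXB13 (log2 −0.82 with SE 0.20, adjusted p = 0.0336 in limma). No library overlapped between the groups in any of these genes, and *KLK2* and *KLK3* passed in all 4 fits that left out 1 library, whereas *KLK4* passed in none (highest adjusted p = 0.194). These were the 3 lower genes among 10 kallikreins tested of 16 listed (median log2 −0.58), against 3.44% lower over all genes. Of the 16, 5 were at 0 in all 4 libraries. *KLK2* and *KLK3* are close paralogs and neighbours, so a part of their reads may have been split. In shCtrl cells shp300 also lowered *KLK3* (log2 −1.16 with SE 0.21, adjusted p = 0.0133 in limma) and *KLK2* (log2 −1.15 with SE 0.19, adjusted p = 0.00764 in limma), although without 1 shCtrl or shCtrl+shp300 library *KLK3* passed in 0 and *KLK2* in 1 of 4 fits (highest 0.127 and 0.0852). The difference between backgrounds did not pass for *KLK3* (log2 −0.55, adjusted p = 0.466, limma) or *KLK2* (log2 −0.78, adjusted p = 0.218, limma).

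**Figure D4:**
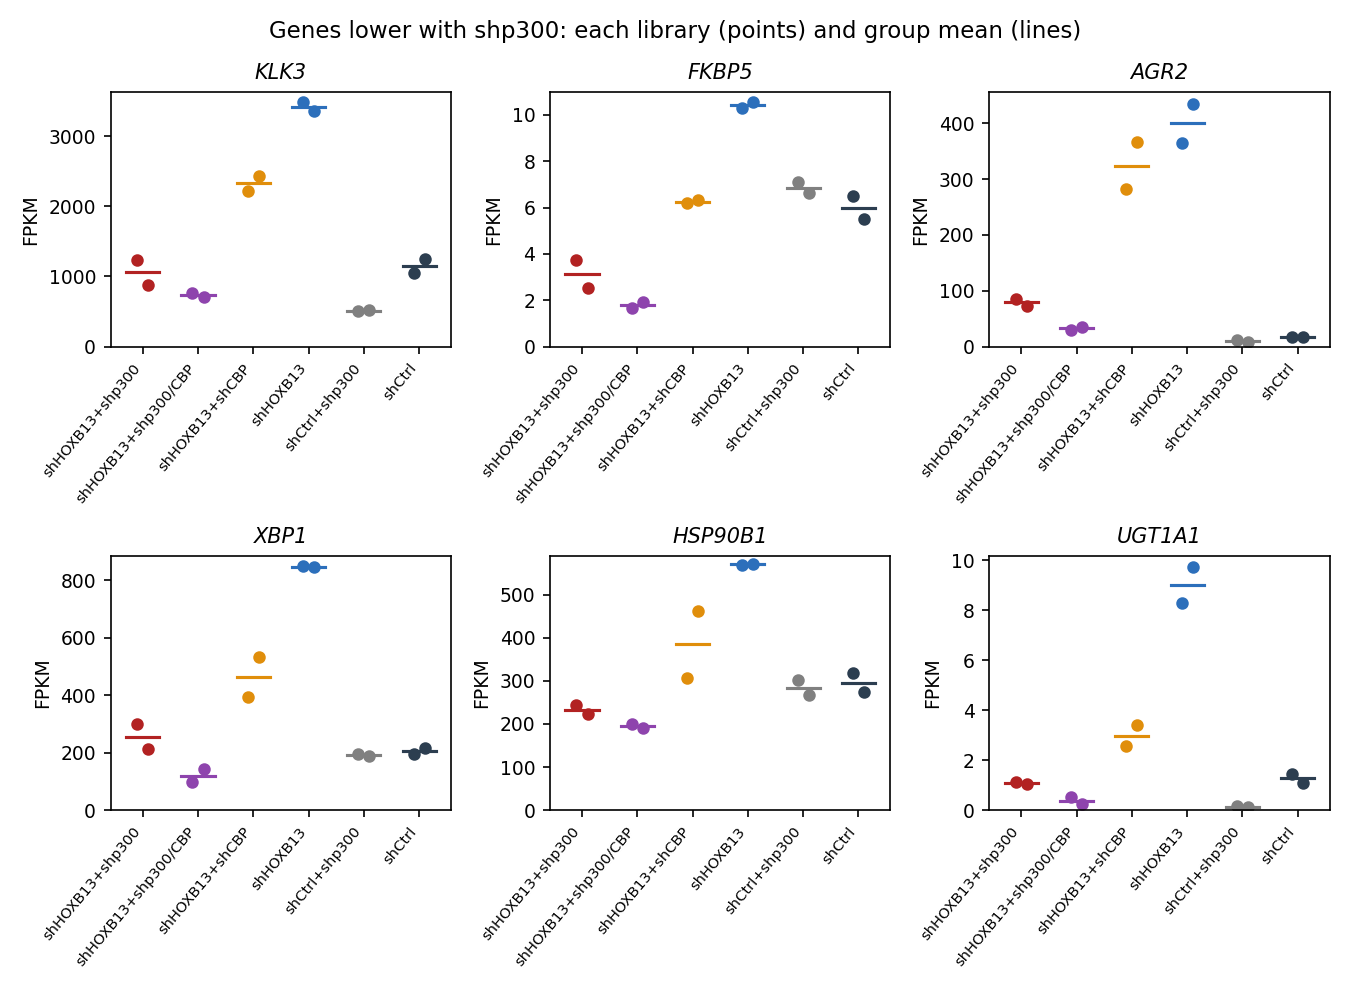
FPKM of *KLK3*, *FKBP5*, *AGR2*, *XBP1*, *HSP90B1* and *UGT1A1* in each library (points) with the group mean (line), for 6 groups of 2 libraries. In all 6 genes both shHOXB13+shp300 libraries lie below both shHOXB13 libraries, for example 300.3 and 211 FPKM against 849.5 and 847 FPKM for *XBP1*.

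The *KLK3* promoter is shown because it holds a known androgen response element. The androgen receptor hexamer AGAACA, in capitals, starts 170 bases before the gene start in chr19:50854665-50854914 (GRCh38.p14, plus strand). On either strand this hexamer was present in 1 of the 13 kallikrein promoters in the table (7.69%), 0 of 21 for the androgen response genes outside the kallikreins, 36 of 415 for the genes that were lower (8.67%), 22 of 385 for those that were higher (5.71%), 985 of 11971 for all tested genes (8.23%) and 3397 of all 27305 promoters (12.4%). Androgen receptor binding sites are mostly distal, and these windows hold promoters only.
KLK3: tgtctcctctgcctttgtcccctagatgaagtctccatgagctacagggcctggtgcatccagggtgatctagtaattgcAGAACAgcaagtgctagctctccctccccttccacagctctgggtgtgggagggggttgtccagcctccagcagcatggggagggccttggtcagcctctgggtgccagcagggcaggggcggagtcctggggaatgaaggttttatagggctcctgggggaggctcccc

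Part of the protein folding machinery of the secretory pathway fell as well. Of 19 endoplasmic reticulum chaperone and unfolded protein response genes, 8 were lower and 0 higher, against 3.44% lower over all genes (median log2 −0.60, range −1.75 to −0.16). The count of members lower was 3 to 7 in the fits that left out 1 library, 11 with voom and 0 in the fit of the 4 libraries alone. *XBP1*, the transcription factor of the unfolded protein response, measured 300.3 and 211 FPKM in shHOXB13+shp300 cells, against 849.5 and 847 FPKM in shHOXB13 cells (log2 −1.75 with SE 0.22, adjusted p = 0.000855 in limma). *HSP90B1*, which encodes the chaperone GRP94, measured 243 and 223 FPKM with shHOXB13+shp300 and 569 and 572 FPKM with shHOXB13 (log2 −1.29 with SE 0.21, adjusted p = 0.00471 in limma). *CANX*, the lectin chaperone calnexin, measured 57.4 and 49.5 FPKM with shHOXB13+shp300 and 115 and 118 FPKM with shHOXB13 (log2 −1.13 with SE 0.14, adjusted p = 0.000763 in limma). These 3 passed whichever library was left out. In cells with HOXB13, *XBP1* measured 196 and 187 FPKM with shCtrl+shp300 and 195 and 215 FPKM with shCtrl, a difference that did not pass (log2 −0.10 with SE 0.22, adjusted p = 0.913 in limma). *HSPA5*, which encodes BiP, measured 177 and 138 FPKM in shHOXB13+shp300 cells and 312 and 319 FPKM in shHOXB13 cells (log2 −1.01 with SE 0.21, adjusted p = 0.0153 in limma). *MANF* (log2 −0.85, adjusted p = 0.0108), *PDIA6* (log2 −1.07, adjusted p = 0.0149), *HERPUD1* (log2 −0.71, adjusted p = 0.0181) and *DNAJB9* (log2 −0.73, adjusted p = 0.0211) were the other members lower. *HSPA5*, *MANF*, *PDIA6* and *HERPUD1* passed in 1 of the 4 fits without a library and *DNAJB9* in none (highest adjusted p = 0.132 among the 5).

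Of 12 prostate secretory genes 3 were lower, *AGR2* and *AZGP1* among them, 0 were higher and 9 did not pass (median log2 −0.27), against 3.44% lower over all genes. *EDEM3*, *ST6GALNAC1* and *TGM4* are outside that list. *AGR2*, a disulfide isomerase of secretory epithelia, measured 85.6 and 73.2 FPKM in shHOXB13+shp300 cells, against 365 and 434 FPKM in shHOXB13 cells (log2 −2.33 with SE 0.17, adjusted p = 5.57e-05 in limma). *EDEM3*, a mannosidase of glycoprotein quality control, measured 11.5 and 9.93 FPKM with shHOXB13+shp300 and 48.2 and 46.7 FPKM with shHOXB13 (log2 −2.14 with SE 0.25, adjusted p = 0.000596 in limma). *ST6GALNAC1*, which adds sialic acid to mucin-type glycans, measured 6.86 and 3.79 FPKM with shHOXB13+shp300 and 43.3 and 41.6 FPKM with shHOXB13 (log2 −3.03 with SE 0.29, adjusted p = 0.000236 in limma). *AGR2*, *EDEM3* and *ST6GALNAC1* were separate between the groups and held in all 4 fits that left out 1 library. *AZGP1*, a secreted glycoprotein of the prostate, was also lower (log2 −0.91 with SE 0.18, adjusted p = 0.0122 in limma), in 1 of the 4 fits (highest adjusted p = 0.105). *TGM4*, prostate transglutaminase, had 6 and 7 reads in shHOXB13+shp300 cells and 67 and 77 reads in shHOXB13 cells (log2 −2.71 with SE 0.58, adjusted p = 0.0171 in limma), and passed in none of them (highest 0.128).

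The endoplasmic reticulum stress response element (ERSE), bound by ATF6 and XBP1 together with NF-Y, is shown for 3 of these promoters. Its letters, CCAAT followed by any 9 bases and CCACG, were present on either strand in 6 of the 18 promoters of the chaperone list (33.3%), which were those of *HSPA5*, *HSP90B1*, *XBP1*, *CALR*, *CANX* and *CRELD2*. They were present in 4 of 415 promoters of genes that were lower (0.964%), 0 of 385 of genes that were higher, 17 of 11971 of all tested genes (0.142%) and 22 of all 27305 (0.0806%). The 4 were *HSPA5*, *HSP90B1*, *XBP1* and *CANX*, which are members of the chaperone list, so that share is not separate from the list's. The capitals start 66 bases before the gene start in *HSPA5* (chr9:125241344-125241593, minus strand), 194 and 89 bases before it in *HSP90B1* (chr12:103930160-103930409, plus strand) and 52 bases before it in *XBP1* (chr22:28800570-28800819, minus strand), all in RefSeq GRCh38.p14.
HSPA5: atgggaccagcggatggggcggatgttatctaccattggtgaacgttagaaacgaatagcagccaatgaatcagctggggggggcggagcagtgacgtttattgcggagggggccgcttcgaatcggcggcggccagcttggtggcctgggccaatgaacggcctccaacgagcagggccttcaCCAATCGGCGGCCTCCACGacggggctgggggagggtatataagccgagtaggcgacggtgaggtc
HSP90B1: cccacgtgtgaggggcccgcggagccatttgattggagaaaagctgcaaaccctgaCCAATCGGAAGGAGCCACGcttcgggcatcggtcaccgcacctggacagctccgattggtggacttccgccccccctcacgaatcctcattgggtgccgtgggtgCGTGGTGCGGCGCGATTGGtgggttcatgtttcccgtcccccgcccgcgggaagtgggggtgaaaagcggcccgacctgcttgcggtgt
XBP1: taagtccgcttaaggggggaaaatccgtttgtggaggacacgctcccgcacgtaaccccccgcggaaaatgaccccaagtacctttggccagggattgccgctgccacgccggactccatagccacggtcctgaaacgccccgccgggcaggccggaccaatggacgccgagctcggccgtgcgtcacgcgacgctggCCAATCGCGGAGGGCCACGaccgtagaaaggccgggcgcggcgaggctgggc

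Most of the tested UDP-glucuronosyltransferase genes, a family in which some members inactivate androgens by glucuronidation, were lower. Of 18 UDP-glucuronosyltransferase genes listed, 9 were tested and 6 were at 0 in all 4 libraries, and 7 of the 9 were lower, against 3.44% over all genes (median log2 −1.20). The count was 1 to 5 in the fits that left out 1 library and 0 in the fit of the 4 libraries alone. *UGT1A1*, which conjugates bilirubin and steroids, measured 1.14 and 1.03 FPKM in shHOXB13+shp300 cells and 8.31 and 9.72 FPKM in shHOXB13 cells (log2 −2.94 with SE 0.31, adjusted p = 0.000423 in limma) and was lower in every such fit. The *UGT1A* genes share their 3-prime exons, and *UGT1A3* (log2 −2.05, adjusted p = 0.044, highest 0.267 without a library) may carry some of the same reads. Several *UGT2B* genes, which act on dihydrotestosterone and its metabolites, had opposite signs in the 2 backgrounds. *UGT2B17* measured 34.5 and 28.5 FPKM in shHOXB13+shp300 cells and 50.3 and 47.9 FPKM in shHOXB13 cells (log2 −0.65 with SE 0.17, adjusted p = 0.0379 in limma), against 10.9 and 8.69 FPKM in shCtrl+shp300 cells and 4.63 and 4.44 FPKM in shCtrl cells (log2 1.08 with SE 0.17, adjusted p = 0.00541 in limma). *UGT2B28* measured 37.3 and 25.8 FPKM with shHOXB13+shp300 and 65.3 and 78.3 FPKM with shHOXB13 (log2 −1.20 with SE 0.22, adjusted p = 0.00876 in limma), and 1.46 and 1.13 FPKM with shCtrl+shp300 and 0.514 and 0.761 FPKM with shCtrl (log2 0.93 with SE 0.22, adjusted p = 0.0441 in limma). The difference between backgrounds passed for *UGT2B17* (log2 −1.73 with SE 0.23, adjusted p = 0.00789 in limma), *UGT2B28* (log2 −2.14 with SE 0.31, adjusted p = 0.0106 in limma) and *UGT2B15* (log2 −2.00 with SE 0.32, adjusted p = 0.0147 in limma), among 5 of the 9 genes, beside 0.356% of all genes with a difference in that direction. *UGT2B11* was lower in shHOXB13 cells (log2 −1.09 with SE 0.22, adjusted p = 0.0137 in limma) with log2 0.01 in shCtrl cells. Without 1 library, *UGT2B28* passed in 2 of 4 fits, *UGT2B11* in 1, and *UGT2B15* and *UGT2B17* in 0 (highest adjusted p = 0.214 among the 4). In shCtrl cells *UGT2B17* passed in 3 of 4 such fits (not without shCtrl+shp300 replicate 1, 0.0737), *UGT2B15* in 1 and *UGT2B28* in 0 (highest 0.307). The difference passed in 8 of 8 such fits for *UGT2B17*, 6 for *UGT2B28* (highest 0.0605) and 2 for *UGT2B15* (highest 0.0780). The *UGT2B* paralogs are very alike, so reads may have been split among them.

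Of the lipid genes, the class the study was about, a minority of each list passed, and most of those were lower. Of 13 de novo lipogenesis genes 2 were lower (1 with the replicate block) and 0 higher, beside 3.44% lower over all genes (median log2 −0.09), and of 11 SREBP pathway genes 0 passed (median −0.06). *FASN*, fatty acid synthase, measured 736 and 665 FPKM in shHOXB13+shp300 cells and 864 and 832 FPKM in shHOXB13 cells, without overlap and without passing (log2 −0.28 with SE 0.12, adjusted p = 0.215 in limma). *SREBF1*, which encodes the lipogenic transcription factor SREBP1, measured 374 and 296 FPKM with shHOXB13+shp300 and 292 and 298 FPKM with shHOXB13, and the groups overlapped (log2 0.17 with SE 0.15, adjusted p = 0.551 in limma). The 2 genes that passed were *ACACA*, acetyl-CoA carboxylase (log2 −0.72, adjusted p = 0.0448, limma), and *THRSP*, a lipogenic regulator (log2 −1.56, adjusted p = 0.0302, limma), each in 0 of 4 fits without a library (highest 0.249 and 0.172). *ELOVL5*, which elongates polyunsaturated fatty acids, measured 79.9 and 57.5 FPKM in shHOXB13+shp300 cells, against 195 and 198 FPKM in shHOXB13 cells (log2 −1.54 with SE 0.16, adjusted p = 0.0004 in limma), in all 4 such fits. *FADS1*, the delta-5 desaturase, went the other way, at 54.9 and 50.7 FPKM with shHOXB13+shp300 and 28.6 and 34.1 FPKM with shHOXB13 (log2 0.76 with SE 0.16, adjusted p = 0.0156 in limma), in 1 of the 4 fits (highest 0.142).

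Of 20 cholesterol synthesis genes 3 were lower and 0 higher (median log2 0.00), beside 3.44% lower and 3.5% higher over all genes. The same shares over all genes stand beside the other lipid lists that follow. *HMGCS1*, HMG-CoA synthase, measured 22.4 and 21.2 FPKM in shHOXB13+shp300 cells and 49.6 and 46.03 FPKM in shHOXB13 cells (log2 −1.13 with SE 0.17, adjusted p = 0.00253 in limma), in all 4 fits that left out 1 library. *PMVK*, phosphomevalonate kinase (log2 −0.99, adjusted p = 0.00696, highest 0.0656 without a library), passed in 1 fit. Of 25 sphingolipid genes 4 were lower (2 with the replicate block) and 2 higher. *ASAH1*, acid ceramidase, measured 188 and 137 FPKM with shHOXB13+shp300 and 453 and 442 FPKM with shHOXB13 (log2 −1.48 with SE 0.18, adjusted p = 0.000818 in limma), and *SGPP1*, which removes phosphate from sphingosine 1-phosphate, was lower as well (log2 −1.13 with SE 0.17, adjusted p = 0.00327 in limma). Both held in all 4 fits that left out 1 library. The ceramide enzymes *DEGS2* (log2 1.05, adjusted p = 0.00864, limma) and *CERS5* (log2 0.82, adjusted p = 0.0317, limma) were higher, in 2 and 0 of 4 such fits (highest 0.172). *ACSL3*, which activates long-chain fatty acids, measured 164 and 136 FPKM in shHOXB13+shp300 cells, against 289.9 and 273 FPKM in shHOXB13 cells (log2 −0.91 with SE 0.17, adjusted p = 0.00799 in limma; 1 of 4 fits, highest 0.0738), and its shp300 effect was more negative than in shCtrl cells (log2 −1.40 with SE 0.24, adjusted p = 0.0187 in limma; 2 of 8 fits, highest 0.0916). Of 23 fatty acid oxidation genes 4 were lower and 0 higher (median log2 −0.26), among them *ECI2* (log2 −1.08, adjusted p = 0.00625; 2 of 4 fits, highest 0.0623), *ACADM* (log2 −0.80, adjusted p = 0.0315) and *ETFDH* (log2 −0.68, adjusted p = 0.0283). *ACADM* and *ETFDH* passed in at most 1 of 4 fits (highest 0.226). Of 23 triglyceride and lipid droplet genes *GPAM* (log2 −0.75, adjusted p = 0.0357) and *FITM2* (log2 −1.15, adjusted p = 0.0142) were lower and 0 higher, in 0 and 1 of 4 fits (highest 0.195). Of 44 fatty-acyl-CoA genes that the study had chosen near its binding sites 6 were lower and 0 higher. That last list was chosen by the study and is not independent evidence of a direction.

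Of 17 matrix metalloproteinases, which degrade the extracellular matrix, 0 passed in HOXB13-depleted cells by limma with the main settings (median log2 −0.05). Over all genes 3.5% were higher and 3.44% lower at the same threshold, so 0 of 17 is near the share over all genes. The same shares stand beside the 4 inhibitors tested, 2 of them higher. They also stand beside 12 regulators of epithelial-mesenchymal transition, with 1 higher and 2 lower. A pseudocount of 1 FPKM called *MMP17* higher (adjusted p = 0.0464, against 0.0553 with 0.1 FPKM) and *MMP1* lower (0.0147 against 0.0736), median-of-ratios scaling called *MMP17* higher (0.0410), and voom called *MMP24* higher (0.0415 against 0.0717 in limma). *MMP10* measured 34.9 and 23.6 FPKM in shHOXB13+shp300 cells and 39.1 and 42.2 FPKM in shHOXB13 cells (log2 −0.50 with SE 0.27, adjusted p = 0.305 in limma). In shCtrl cells *MMP10* rose with shp300, to 6.89 and 3.94 FPKM in shCtrl+shp300 cells against 0.329 and 0.543 FPKM in shCtrl cells (log2 3.34 with SE 0.27, adjusted p = 0.000175 in limma), and the difference between backgrounds passed (log2 −3.84 with SE 0.38, adjusted p = 0.00198 in limma), also in all 8 fits that left out 1 library. *MMP12* (log2 −0.84, adjusted p = 0.307), *MMP13* (log2 −0.05, adjusted p = 0.964) and *MMP7* (log2 −1.004, adjusted p = 0.493) did not pass with limma, although *MMP12* did with voom (adjusted p = 0.036). The 2 inhibitors *TIMP1* (log2 2.39, adjusted p = 0.022, limma) and *TIMP2* (log2 0.55, adjusted p = 0.0152, limma) were higher, in 1 and 0 of 4 fits without a library (highest 0.135 and 0.130). Among 12 regulators of epithelial-mesenchymal transition, *TWIST1* rose to 4.04 and 4.05 FPKM in shHOXB13+shp300 cells, against 2.06 and 1.64 FPKM in shHOXB13 cells (log2 1.10 with SE 0.18, adjusted p = 0.0041 in limma). It missed the threshold without shHOXB13 replicate 2 (adjusted p = 0.0509). *SNAI2* (log2 −1.60, adjusted p = 0.0391) and fibronectin, *FN1* (log2 −0.84, adjusted p = 0.0204), were lower by limma but passed in 0 and 1 of 4 such fits (highest 0.238 and 0.144). *SNAI1* (log2 1.02, adjusted p = 0.0779), *ZEB1* (log2 0.18, adjusted p = 0.84), *CDH1*, which encodes E-cadherin (log2 0.22, adjusted p = 0.545), and *VIM*, vimentin (log2 1.16, adjusted p = 0.122), did not pass. Some of these genes rest on few reads, given for shHOXB13+shp300 and then shHOXB13. *TIMP1* had 11 and 5 against 1 and 1, and *SNAI2* had 2 and 3 against 20 and 10. *ZEB1* had 2 and 2 against 2 and 1, and *MMP7* had 7 and 1 against 10 and 8. At such counts a gene that did not pass is not shown to be unchanged.

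Some regulators of the cell cycle changed, with 2 of 9 cyclin-dependent kinase inhibitors and D cyclins higher and 2 lower. Over all genes 3.5% were higher and 3.44% lower at the same threshold. *CCND1*, cyclin D1, measured 20.5 and 17.2 FPKM in shHOXB13+shp300 cells, against 52.4 and 49.2 FPKM in shHOXB13 cells (log2 −1.43 with SE 0.18, adjusted p = 0.00102 in limma). *CDKN1B*, which encodes p27, measured 40.3 and 30.5 FPKM with shHOXB13+shp300 and 80.5 and 71.5 FPKM with shHOXB13 (log2 −1.11 with SE 0.17, adjusted p = 0.00276 in limma). *CDKN2A*, which encodes p16 and ARF, was higher at 12.8 and 9.73 FPKM with shHOXB13+shp300 and 4.04 and 3.79 FPKM with shHOXB13 (log2 1.49 with SE 0.18, adjusted p = 0.000736 in limma). All 3 held in the 4 fits that left out 1 library. *CDKN2C*, which encodes p18, was higher in shHOXB13 cells (log2 0.99 with SE 0.21, adjusted p = 0.0163 in limma; 1 of 4 fits, highest 0.138) and lower in shCtrl cells (log2 −1.08 with SE 0.21, adjusted p = 0.017 in limma; 0 of 4 fits, highest 0.136), and the difference passed (log2 2.07 with SE 0.29, adjusted p = 0.00949 in limma; 6 of 8 fits, highest 0.0530). Of 23 DNA replication genes 0 passed with shp300 in shHOXB13 cells (median log2 −0.05), whereas 9 were lower and 0 higher in shCtrl cells (median −0.82), where 2.19% of all genes were lower. Of 20 mitosis genes 1 was lower and 1 higher in shHOXB13 cells, near the 3.44% and 3.5% over all genes (median 0.05), while 11 were lower and 0 higher in shCtrl cells (median −1.79). The difference itself passed for 2 replication and 3 mitosis genes, all less negative in shHOXB13 cells, against 0.498% of all genes with a difference in that direction. Both lists were already lower without shp300 in shHOXB13 than in shCtrl cells. The mitosis genes summed to 14.8 and 15.2 FPKM with shHOXB13, 76.9 and 77.7 FPKM with shCtrl and 23.3 and 24.2 FPKM with shCtrl+shp300. The replication genes summed to 87.7 and 81.3 FPKM with shHOXB13 and 203 and 194 FPKM with shCtrl. How far these starting levels bear on the difference was not tested. The mitosis gene called higher in shHOXB13 cells was *BUB1B*, a spindle checkpoint kinase (1.04 on the log2 scale). It was not called in any fit without 1 library (highest adjusted p = 0.221), nor with the replicate block, voom, a pseudocount of 1 FPKM, no filter, a filter of 1 FPKM or the 4 libraries alone. The gene called lower was *CDK1* (log2 −1.44 with SE 0.25, adjusted p = 0.0059 in limma; not without shHOXB13 replicate 2, adjusted p = 0.0513). The proliferation marker *MKI67* measured 0.0980 and 0.212 FPKM with shHOXB13+shp300 and 0.147 and 0.0925 FPKM with shHOXB13 with overlap (log2 0.19 with SE 0.41, adjusted p = 0.846 in limma). Of 19 p53 target genes 4 were higher (7 with median-of-ratios scaling) and 1 lower (median log2 0.22), among them *BAX*, which promotes apoptosis (log2 0.72, adjusted p = 0.0324; 0 of 4 fits, highest 0.217), and *TP53I3* (log2 0.71, adjusted p = 0.00913; 2 of 4, highest 0.0894), both higher by limma. *FAS*, the death receptor, measured 12.7 and 12.5 FPKM in shHOXB13+shp300 cells and 6.57 and 6.29 FPKM in shHOXB13 cells (log2 0.96 with SE 0.18, adjusted p = 0.00884 in limma; 1 of 4 fits, highest 0.0713).

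Few genes that CREB or growth factor signalling induces were called. *DUSP4*, a phosphatase that is induced by and restrains MAP kinase signalling, measured 2.84 and 2.41 FPKM in shHOXB13+shp300 cells and 9.71 and 8.24 FPKM in shHOXB13 cells (log2 −1.74 with SE 0.16, adjusted p = 0.000201 in limma) and held in all 4 fits that left out 1 library. Its relative *DUSP6* (log2 −1.60, adjusted p = 0.0109) and the orphan receptor *NR4A1* (log2 −1.10, adjusted p = 0.0181) were lower in 1 of 4 such fits each (limma, highest 0.0942 and 0.123). Of 11 CREB targets 2 were lower and 0 higher (median log2 −0.72), and of 14 immediate early genes 1 was lower and 0 higher, against 3.44% lower over all genes. The count of CREB targets lower was 4 with a pseudocount of 1 FPKM, 4 with median-of-ratios scaling, 6 with voom, 0 in the fit of the 4 libraries alone and 1 without shHOXB13 replicate 1, without shHOXB13 replicate 2 or without shHOXB13+shp300 replicate 2. The immediate early call was lost in 3 of the 4 fits that left out 1 library, all but the one without shHOXB13+shp300 replicate 2, with a filter of 1 FPKM and in the fit of the 4 libraries alone.

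Several of the largest changes lay outside these lists. *KRT75*, a type II keratin, had 186 and 199 reads in shHOXB13+shp300 cells and 3 reads in each shHOXB13 library, or 10.7 and 10.4 FPKM with shHOXB13+shp300 and 0.113 and 0.148 FPKM with shHOXB13 (log2 5.53 with SE 0.88, adjusted p = 0.00382 in limma). *ANGPT2*, which encodes the vascular ligand angiopoietin 2, measured 16.7 and 15.7 FPKM with shHOXB13+shp300 and 1.23 and 1.24 FPKM with shHOXB13 (log2 3.61 with SE 0.42, adjusted p = 0.000596 in limma). *IGFBP6*, an insulin-like growth factor binding protein, had 12 and 11 reads with shHOXB13+shp300 and 0 in both shHOXB13 libraries, at least 9.86-fold higher at the floor of 3 reads over the group (limma adjusted p = 5.57e-05). *HRASLS2*, a phospholipase, had 10 and 8 reads with shHOXB13+shp300 and 0 with shHOXB13, at least 7.74-fold higher (limma adjusted p = 0.000658). When 1 library was left out, log2 changes were 5.42 to 5.64 for *KRT75* and 3.57 to 3.66 for *ANGPT2*. *IGFBP6* also had 0 reads in both libraries of shHOXB13+shCBP, shCtrl+shp300 and shCtrl. *HRASLS2* had 0 reads in shHOXB13+shCBP and shCtrl and 0 and 1 in shCtrl+shp300. Groups at 0 add no spread to the pooled fit, so the p-values of *IGFBP6* and *HRASLS2* can come out too small. In the other direction, *FAM107B* measured 24.9 and 14.4 FPKM in shHOXB13+shp300 cells, against 112 and 105 FPKM in shHOXB13 cells (log2 −2.51 with SE 0.23, adjusted p = 0.000217 in limma). *FAM111B*, a trypsin-like protease, measured 13.9 and 8.69 FPKM with shHOXB13+shp300 and 66.7 and 64.5 FPKM with shHOXB13 (log2 −2.57 with SE 0.41, adjusted p = 0.00384 in limma). Both kept their calls whichever library was left out. *RNVU1-15*, a variant U1 small nuclear RNA, had 0 reads in both shHOXB13+shp300 libraries and 4 and 2 in the shHOXB13 libraries, at least 1.52-fold lower (limma adjusted p = 0.00013), and voom did not call it (adjusted p = 0.060). *OVOL1-AS1* had 0 reads with shHOXB13+shp300 and 7 and 6 with shHOXB13, at least 3.41-fold lower (limma adjusted p = 0.0246), and it passed in 0 of the 4 fits without a library (highest 0.130). It is antisense to *OVOL1*, and counting without strand cannot tell the pair apart.

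Lists that mark other cell types or states gave few calls, to be read beside the 3.5% higher and 3.44% lower over all genes. Of 10 luminal epithelial markers 3 were lower and 0 higher, with a sum of 2182 and 1659.7 FPKM in shHOXB13+shp300 cells and 4480.4 and 4358 FPKM in shHOXB13 cells, most of it *KLK3*. Of 9 basal markers 7 were tested and 2 were higher, with sums of 8.62 and 6.86 FPKM with shHOXB13+shp300 and 5.45 and 5.50 FPKM with shHOXB13. These were *ITGB4*, an integrin (log2 1.70, adjusted p = 0.00446, limma, not without shHOXB13 replicate 2 at 0.0529), and *KRT17*, with 9 and 3 reads with shHOXB13+shp300 and 0 with shHOXB13 (0 of 4 fits, highest 0.238). How far these markers bear on the other changes was not tested. Of 10 fibroblast markers 5 were tested and *LUM*, lumican, was higher (log2 2.48, adjusted p = 0.0128, limma; 1 of 4 fits, highest 0.110), with sums of 8.74 and 8.19 FPKM with shHOXB13+shp300 and 5.60 and 4.68 FPKM with shHOXB13. Of 14 neuroendocrine markers 6 were tested and *SYP*, synaptophysin, was higher (log2 1.29, adjusted p = 0.0164, limma; 1 of 4 fits, highest 0.105). Of 4 mesenchymal-line markers tested of 7, 0 passed. Among 13 reference genes 0 passed (median log2 0.07), and among 76 ribosomal protein genes 0 passed (median 0.03). Of 71 nuclear genes of oxidative phosphorylation 5 were lower and 0 higher, against 3.44% lower over all genes (median −0.22), *CYCS*, cytochrome c, with the smallest p (log2 −0.71, adjusted p = 0.0119, limma; 1 of 4 fits, highest 0.102). The count of those genes lower was 14 with median-of-ratios scaling, 3 with no filter, and 0 without shHOXB13 replicate 1, without shHOXB13 replicate 2, without shHOXB13+shp300 replicate 2 or in the fit of the 4 libraries alone. Of 32 lysosomal genes *LAMP1*, a membrane glycoprotein (log2 0.87, adjusted p = 0.00451, limma; not without shHOXB13 replicate 1 at 0.0596), and *NPC2*, a cholesterol carrier (log2 0.75, adjusted p = 0.0114, limma; 1 of 4 fits, highest 0.0984), were higher, and *ASAH1* was lower. The counts were 0 of the 10 HDAC3 and NCoR corepressor genes, 0 of 7 BET bromodomain genes and 0 of 14 androgen synthesis genes.

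**Figure D5:**
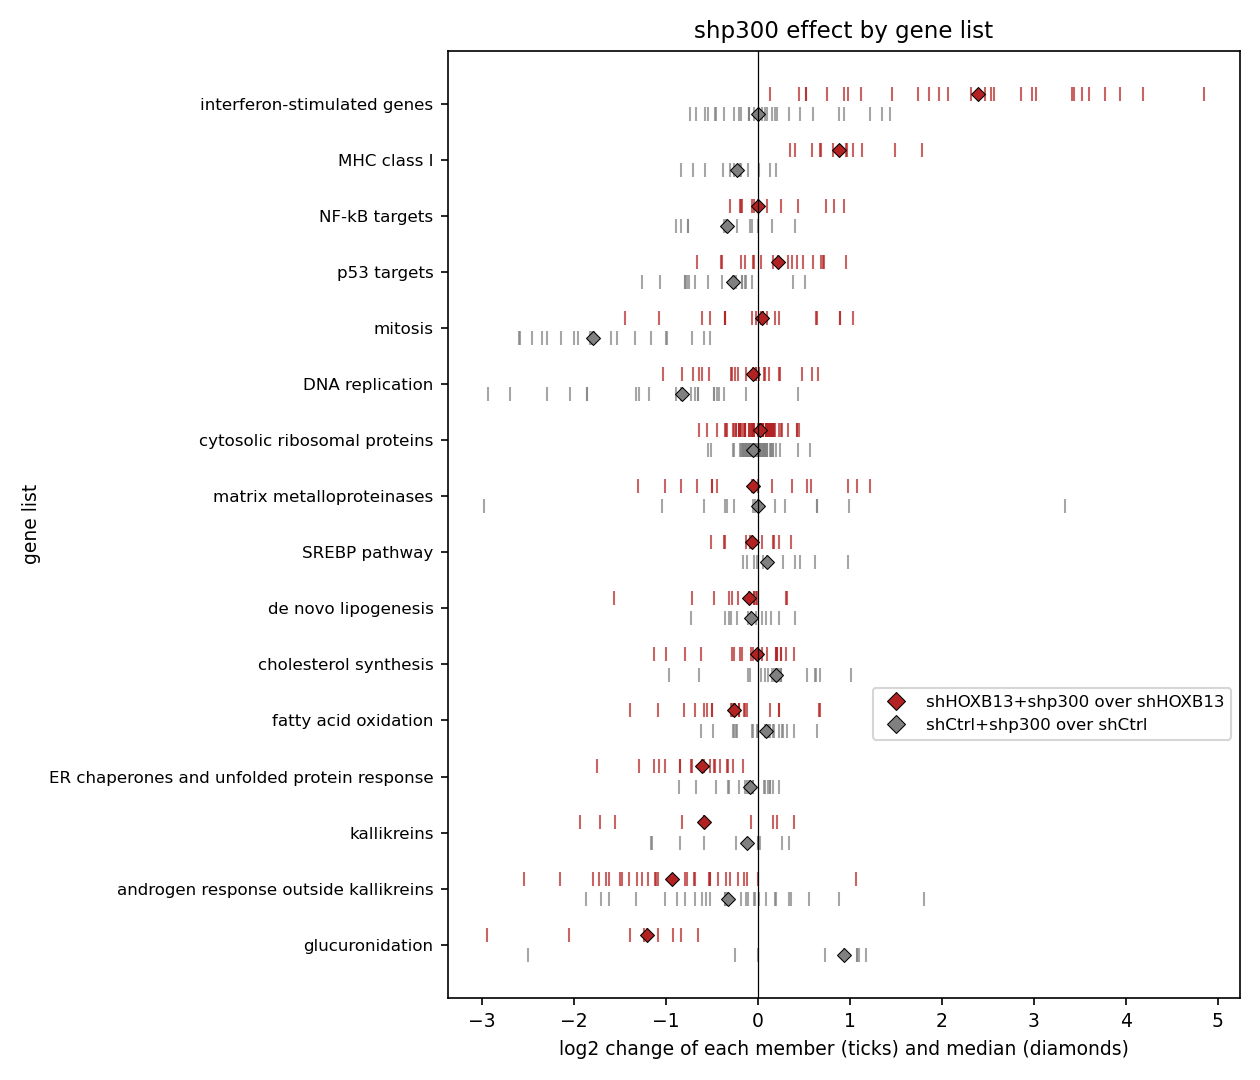
Log2 change with shp300 of each member (ticks) and the list median (diamonds) for 16 gene lists, in shHOXB13 cells (red, upper row of each pair) and in shCtrl cells (grey, lower row). The interferon-stimulated genes have a median of 2.39 in shHOXB13 cells and 0.00 in shCtrl cells, and the mitosis genes 0.05 and −1.79. Without shp300 the mitosis genes summed to 14.8 and 15.2 FPKM with shHOXB13 and 76.9 and 77.7 FPKM with shCtrl.

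The same hairpin was examined in cells that kept HOXB13, with libraries that share none with the main comparison. There 177 genes were higher with shCtrl+shp300 than with shCtrl (1.0% of those tested) and 369 were lower (2.09%). Of the 556 genes that rose in shHOXB13 cells, 48 also rose in shCtrl cells, which is 8.63% of the first list and 27.1% of the second, and 6 were called in the opposite direction. Of the 546 that fell, 97 also fell in shCtrl cells, 17.8% of the first list and 26.3% of the second, and 5 went the opposite way. In shCtrl cells the genes that rose in shHOXB13 cells had a median log2 change of 0.26 and those that fell had −0.28. The counts in shCtrl cells were 19 to 92 higher and 88 to 163 lower when 1 library was left out, lowest without shCtrl+shp300 replicate 1 (19 and 96) and without shCtrl replicate 1 (29 and 88), and 366 and 610 with voom. A fit of the 4 shCtrl and shCtrl+shp300 libraries alone called 0 (smallest adjusted p = 0.0532), with 739 higher and 1021 lower at an unadjusted p under 0.05.

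The difference of the shp300 effect between the backgrounds passed for 151 genes, 88 more positive in shHOXB13 cells (0.498%) and 63 more negative (0.356%). Leaving out 1 of the 8 libraries gave 22 to 48 and 9 to 59. Beside the interferon-stimulated genes, the more positive genes held *CCL5* (log2 3.37 with SE 0.69, adjusted p = 0.0482 in limma) and *TWIST1* (log2 1.77 with SE 0.25, adjusted p = 0.0088 in limma). The more negative ones held *FKBP5* (log2 −1.92 with SE 0.29, adjusted p = 0.0113 in limma), *XBP1* (log2 −1.65 with SE 0.31, adjusted p = 0.029 in limma) and *AGR2* (log2 −1.47 with SE 0.25, adjusted p = 0.0187 in limma). Of the 8 fits without 1 library, the difference passed in 7 for *TWIST1* (not without shHOXB13 replicate 2, adjusted p = 0.0530), 4 for *FKBP5*, 3 for *AGR2*, 1 for *XBP1* and 0 for *CCL5* (highest 0.202 among the 5).

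The 2 acetyltransferase hairpins were compared directly in HOXB13-depleted cells. This comparison uses the same shHOXB13+shp300 libraries as the one above. Between shHOXB13+shp300 and shHOXB13+shCBP, 321 genes were higher with shp300 (1.82%) and 122 lower (0.69%). Median-of-ratios scaling gave 347 higher and 255 lower. Leaving out 1 library gave 72 to 333 higher and 41 to 73 lower, with 72 and 41 without shHOXB13+shCBP replicate 1. A fit of those 4 libraries alone called 0 (smallest adjusted p = 0.0576), with 1118 higher and 447 lower at an unadjusted p under 0.05. With shp300 *EP300* measured 3.16 and 3.39 FPKM, against 6.17 and 5.19 FPKM with shCBP (log2 −0.77 with SE 0.15, adjusted p = 0.0239 in limma) while *CREBBP* was higher (log2 0.95 with SE 0.16, adjusted p = 0.00916 in limma), in 1 and 3 of 4 fits that left out 1 library (highest 0.159 and 0.0715). *KLK3* measured 1234 and 882 FPKM with shHOXB13+shp300 and 2218 and 2437 FPKM with shHOXB13+shCBP (log2 −1.16 with SE 0.21, adjusted p = 0.016 in limma). It passed in 1 of those 4 fits (highest 0.0938). Of 30 androgen response genes 6 were lower in shHOXB13+shp300 than in shHOXB13+shCBP and 0 higher (median log2 −0.47), beside 0.718% and 1.86% over all genes. *CCND1* was also lower with shp300, at 20.5 and 17.2 FPKM with shHOXB13+shp300 and 52.98 and 58.1 FPKM with shHOXB13+shCBP (log2 −1.56 with SE 0.18, adjusted p = 0.00121 in limma), in all 4 of them. *ACSL3* (log2 −0.06, adjusted p = 0.912, limma), *HSP90B1* (log2 −0.69, adjusted p = 0.112, limma) and *FASN* (log2 0.28, adjusted p = 0.268, limma) did not pass, which does not show that the hairpins act alike on them.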

How the data were processed

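Polyadenylated RNA from LNCaP cells was sequenced, and the authors aligned reads to hg38 (STAR 2.6.0 per the submitters' notes), counted them per gene without strand and deposited FPKM values, 1 table a library. The study called genes with DESeq2 on counts, and because FPKM values are not counts, limma 3.58.1 (R 4.3.3, eBayes with trend) on log2(FPKM + 0.1) took its place with the same thresholds (adjusted p under 0.05, fold change of at least 1.5). All 16 knockdown libraries, in 8 groups of 2, entered 1 fit of group means, over 17678 of 26475 genes with at least 0.1 FPKM in at least 2 libraries. The remaining 12 libraries of the series, from another experiment, were not used here. Depth was 7458934 to 16338528 mapped reads a library, as recovered from the FPKM values, of which 275409 of 275425 (99.99%, tolerance 0.002 reads) came out as whole reads. These reads served voom and the read numbers in the text. p-values measure the spread between duplicates.

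Alternatives were a pseudocount of 1 FPKM, no filter, a filter of 1 FPKM, median-of-ratios scaling, a fit of the compared groups alone, voom, the replicate number as a block, and each library left out. The script was tested on simulated data. The comparison, the 48 gene lists and the named genes were chosen with earlier results of these data known. Named genes were the 3 hairpin targets, 12 genes the study follows, the 12 largest rises and falls at 1 FPKM or more in a group whose libraries did not overlap the other, up to 4 members a list by p, and the 6 largest differences between backgrounds each way. *KLK2*, *IFNL2*, *IFNB1*, *IFNLR1*, *CXCL10*, *DHX58*, *IRF3*, *MAVS*, *TBK1*, *MKI67*, *IFIT1*, *ISG15*, *IRF9*, *STAT2*, *IRF7*, *IFIH1*, *MX1*, *MX2*, *IRF1*, *USP18*, *HSPA5*, *PDIA6*, *HERPUD1*, *DNAJB9*, *B2M*, *UGT2B15*, *UGT2B17*, *TMPRSS2*, *CD68*, *SORD*, *MMP1*, *MMP17*, *MMP24* and *ADAM7* were named after their values were seen. Some genes that these rules name are not reported here.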

Additional observations from a re-analysis of the deposited data

Results flagged for a closer look

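The effect of shp300 differed between HOXB13-depleted and control cells for 151 genes (limma interaction term), and the 6 largest differences each way among genes at 1 FPKM or more are given as the log2 effect in shHOXB13 cells minus that in shCtrl cells. By limma, more positive in shHOXB13 cells were *IFITM1* (5.10, adjusted p = 0.0211), *BST2* (3.98, adjusted p = 0.0106), *IGFBP6* (3.89, adjusted p = 0.00198), *IFNL1* (3.87, adjusted p = 0.00258), *IFIT3* (3.80, adjusted p = 0.0106) and *KRT6C* (3.77, adjusted p = 0.016). By limma, more negative were *RNVU1-15* (−4.76, adjusted p = 0.00198), *MMP10* (−3.84, adjusted p = 0.00198), *STEAP4* (−2.70, adjusted p = 0.00836), *HPGD* (−2.50, adjusted p = 0.029), *UGT2B10* (−2.49, adjusted p = 0.0369) and *RLN1* (−2.44, adjusted p = 0.0369). *RNVU1-15*, *IGFBP6* and *RLN1* rest on few reads in shHOXB13 cells. In the shCtrl and shCtrl+shp300 libraries *IGFBP6* and *IFNL1* had 0 reads, *IFITM1* had 1 to 5 and *BST2* had 3 to 6. *KRT6C* had 3 and 0 reads with shCtrl+shp300, and *UGT2B10* had 1 and 7 with shCtrl. The log2 differences of all these genes depend on the pseudocount. For *IGFBP6* and *IFNL1*, groups at 0 add no spread to the pooled fit, so their p-values can come out too small. When each of the 8 libraries was left out in turn, the difference passed in all 8 fits for *MMP10*, *RNVU1-15*, *IGFBP6* and *IFNL1*, in 7 for *STEAP4* (not without shHOXB13 replicate 2, adjusted p = 0.0526), in 6 for *BST2* and *IFIT3* (highest 0.0577 and 0.0601), in 3 for *KRT6C*, in 2 for *IFITM1* and *RLN1*, in 1 for *UGT2B10* and in 0 for *HPGD* (highest 0.142 among these 5). With voom, *RNVU1-15* (adjusted p = 0.108) and *IFNL1* (0.0925) were not called.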

How the results depend on the processing

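None of the alternatives run reversed a named gene that had passed. Fits of the 4 libraries of a comparison alone called 0 genes higher and 0 lower with shp300 in shHOXB13 cells, in shCtrl cells and against shCBP. In shHOXB13 cells such a fit thus called 0 interferon-stimulated genes higher and 0 androgen response genes lower. These fits leave 2 residual degrees of freedom and also estimate the shared spread from fewer libraries. voom called 366 higher and 610 lower in shCtrl cells. For the difference between backgrounds, a pseudocount of 1 FPKM gave 209 and 116 genes, median-of-ratios scaling 151 and 137, and voom 138 and 125, against 88 and 63. Against shCBP, median-of-ratios scaling gave 255 lower. The cause of these shifts was not tested. Leaving out 1 library gave 154 to 226 genes higher and 142 to 490 lower in shHOXB13 cells, 19 to 92 higher and 88 to 163 lower in shCtrl cells, 22 to 48 and 9 to 59 for the difference, 72 to 333 higher and 41 to 73 lower against shCBP, 10 to 14 androgen response genes lower and 19 to 23 interferon-stimulated genes higher. Of 131 named genes past the threshold in shHOXB13 cells, 53 passed in all 4 such fits and 28 in none. The sample labels give replicate numbers without saying whether same-numbered libraries were handled together. In the pairs of groups checked, deviations of same-numbered libraries correlated at −0.03, 0.03 and −0.04. These values do not settle whether such libraries were paired. With the replicate block, 493 genes were higher and 485 lower in shHOXB13 cells, of which 478 and 480 were among those called without it, and 23 interferon-stimulated genes were higher. Duplicates at 7458934 to 16338528 reads leave genes under about 1 FPKM poorly measured.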
